A study of Mus musculus with 12 samples.

Results

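The ABC (ATP-binding cassette) transporter genes of mouse small intestine are described here in 4 groups of libraries. Members are the rows of the gene table whose symbol starts with Abca to Abcg followed by a number. Of the 44 symbols that match, 3 (Abca1, Abcg5 and Abcg8) were left out by the rule, which gave 41 members of 17175 genes. The rule used names only and no measured value. The filter on low values removed 0 genes and could remove none, since even 0 reads gave a value above 1 in most libraries.

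ABC proteins use ATP to move lipids, conjugates, drugs, peptides and metal complexes across membranes. In the gut, P-glycoprotein, Abcg2 and Abcc2 stand in the brush border of enterocytes and send drugs and conjugates back to the lumen, and Abcc3 stands in the basolateral membrane and passes conjugates towards the blood. Other members work inside the cell, in mitochondria, lysosomes and peroxisomes, and the E and F subfamilies carry no membrane segment and act on the ribosome.

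RNA was sequenced from cKO distal, WT distal, cKO proximal and WT proximal small intestine, with 3 libraries in each group and 12 in all. WT is wild type, and cKO is the genotype labelled Bmpr1a cKO, a conditional knockout of the BMP (bone morphogenetic protein) receptor gene Bmpr1a. The study asks how epithelial BMP signals bear on villus length along the intestine. The labels give neither the Cre driver, the age nor whether a library came from 1 animal, so the p-values measure the spread between these libraries, which may be technical.

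Values are scaled read counts, each a read count plus 1 divided by a size factor of its library, and depth was 11242024 to 17722756 recovered reads per library. Whole-gene values of Bmpr1a were 486 to 668 in cKO distal, 438 to 631 in WT distal, 833 to 1087 in cKO proximal and 772 to 1029 in WT proximal libraries, and gene-level values do not check the deletion of an exon. The ileal bile acid transporter Slc10a2 averaged 1751 in cKO distal against 7.88 in cKO proximal libraries, and 2722 in WT distal against 14.1 in WT proximal libraries. Mitochondrially encoded genes took 9.95 to 27.7% of reads in cKO distal, 22.3 to 37.7% in WT distal, 9.75 to 14.8% in cKO proximal and 17.4 to 26.1% in WT proximal libraries. Both cKO libraries numbered 1 had 0 reads of 4 Y-linked genes that the other 10 libraries expressed, so results are also given without them. WT distal 3 stood apart from WT distal 1 and 2 towards the cKO values in many of the genes below, and its summed enterocyte markers were 545834, against 234136 and 252989 in the other WT distal libraries.

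Levels can be compared between genes only per length, and are given here in scaled counts per kilobase of exon (mean ± SD, n = 3). The drug efflux pump Abcb1a had the highest level of the family in cKO distal intestine, 4100 ± 1062, and in WT distal intestine, 1205 ± 1098. In the proximal segment it also led in cKO, at 1911 ± 333, while in WT it stood at 1565 ± 471, below the conjugate pump Abcc2 at 1744 ± 1010, a difference within their SDs. Abcc2 was at 1091 ± 302 in cKO distal, 300.4 ± 162 in WT distal and 1662 ± 307 in cKO proximal intestine. In WT distal intestine the next levels below Abcb1a were those of the peroxisomal Abcd3, 403 ± 123, and of Abcf1, 374 ± 69.4, which lay above Abcc2 there. With the longest transcript in place of all exons, Abcb1a kept its rank in each group and Abcd3 passed Abcc2 in cKO distal intestine. At the other end, 16 members had a mean scaled count under 100 over all libraries and 7 a mean under 10.

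**Figure D1:**
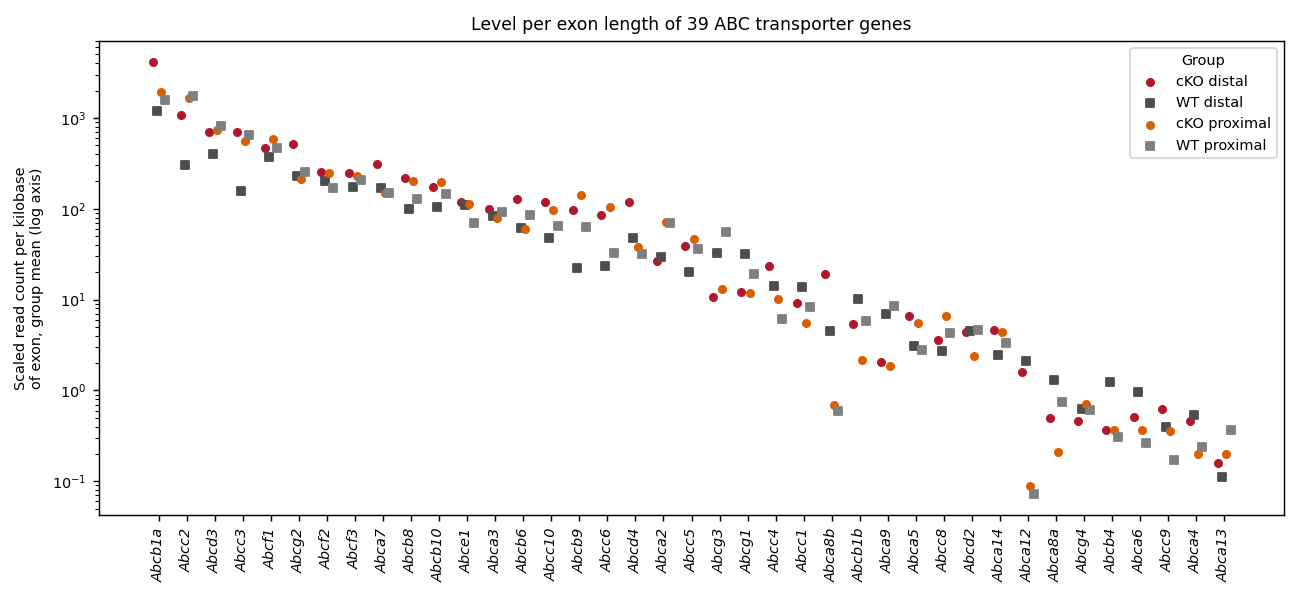
Group means of 39 members in scaled read counts per kilobase of exon on a log axis, with circles for cKO and squares for WT libraries. Genes run by falling mean level, with Abcb1a at the left and Abca13 at the right, and Abcc2 and Abcc3 have their WT distal square well below the other 3 symbols.

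Members were tested in 4 comparisons of 2 groups and in the difference of the genotype effects, with limma over all 17175 genes and a Benjamini-Hochberg adjusted p under 0.05. In the distal segment 15 members were higher and 3 lower in cKO than in WT, where 13.3% of all genes were higher and 11.7% lower. The median log2 fold change of the 41 members was 0.50, beside 0.06 over all genes. In the proximal segment 1 member was higher and 2 were lower in cKO, where 4.21% of all genes were higher and 4.05% lower, and the medians were 0.15 for members and 0.08 for all genes. The share of members higher in the distal segment lay above the share of all genes, and the proximal counts lay near theirs. With TMM scaling the proximal median of all genes was -0.03, 39.7% of all proximal calls were higher in place of 51.0%, and the members had 0 higher and 2 lower.

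Between segments, 4 members were higher and 1 lower in cKO distal than in cKO proximal intestine, where 4.16% of all genes were higher and 6.36% lower. The medians there were 0.19 for members and -0.02 for all genes. In WT, 3 members were higher and 7 lower in distal than in proximal intestine, where 11.9% of all genes were higher and 12.2% lower, with medians of -0.35 and 0.04. The genotype effect was larger in the distal than in the proximal segment for 1 member and smaller for 0, where 0.175% of all genes passed upwards and 0.402% downwards. In all, 22 members passed in at least 1 of the 4 comparisons and 19 in none. The matching share of all genes was not counted, so nothing about the family is read from these counts. The comparisons share libraries: the WT distal libraries stand in both the distal genotype comparison and the WT segment comparison.

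The distal genotype count depended on single libraries. Of 18 calls, 9 passed when WT distal 2 was left out and 11 when cKO distal 1 was, while 21 members passed without WT distal 3. Of all genes 2672, 2466 and 4954 passed in these 3 settings, against 4297 with all libraries. Without both cKO libraries numbered 1 there were 7, among them Abca8b, Abcb1a, Abcb9, Abcc2, Abcc3 and Abcc10, and 2 (Abcb9 and Abcc3) with the mitochondrial share as a covariate, a share that was itself lower on average in cKO. All genes called were then fewer as well, 2160 without those libraries and 1356 with the covariate. With the covariate the log2 fold change was 2.27 for Abca8b, 1.78 for Abcc2 and 1.25 for Abcc10, near the values below, while it was 0.54 for Abcg2 and 0.35 for Abcd3, and the median of the members was 0.65. Without both cKO libraries numbered 1 there were 2 proximal calls of 3, 2 calls between cKO segments of 5 (Abca8b and Abca12), and 0 of 1 in the difference of genotype effects. Of all genes 766, 862 and 2 passed in these comparisons without those libraries, in place of 1418, 1806 and 99. The calls of Abcb1a, Abcb8, Abcb9, Abcc2, Abcc3, Abcc6, Abcc10 and Abcd4 passed with each single library of the comparison left out.

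**Figure D2:**
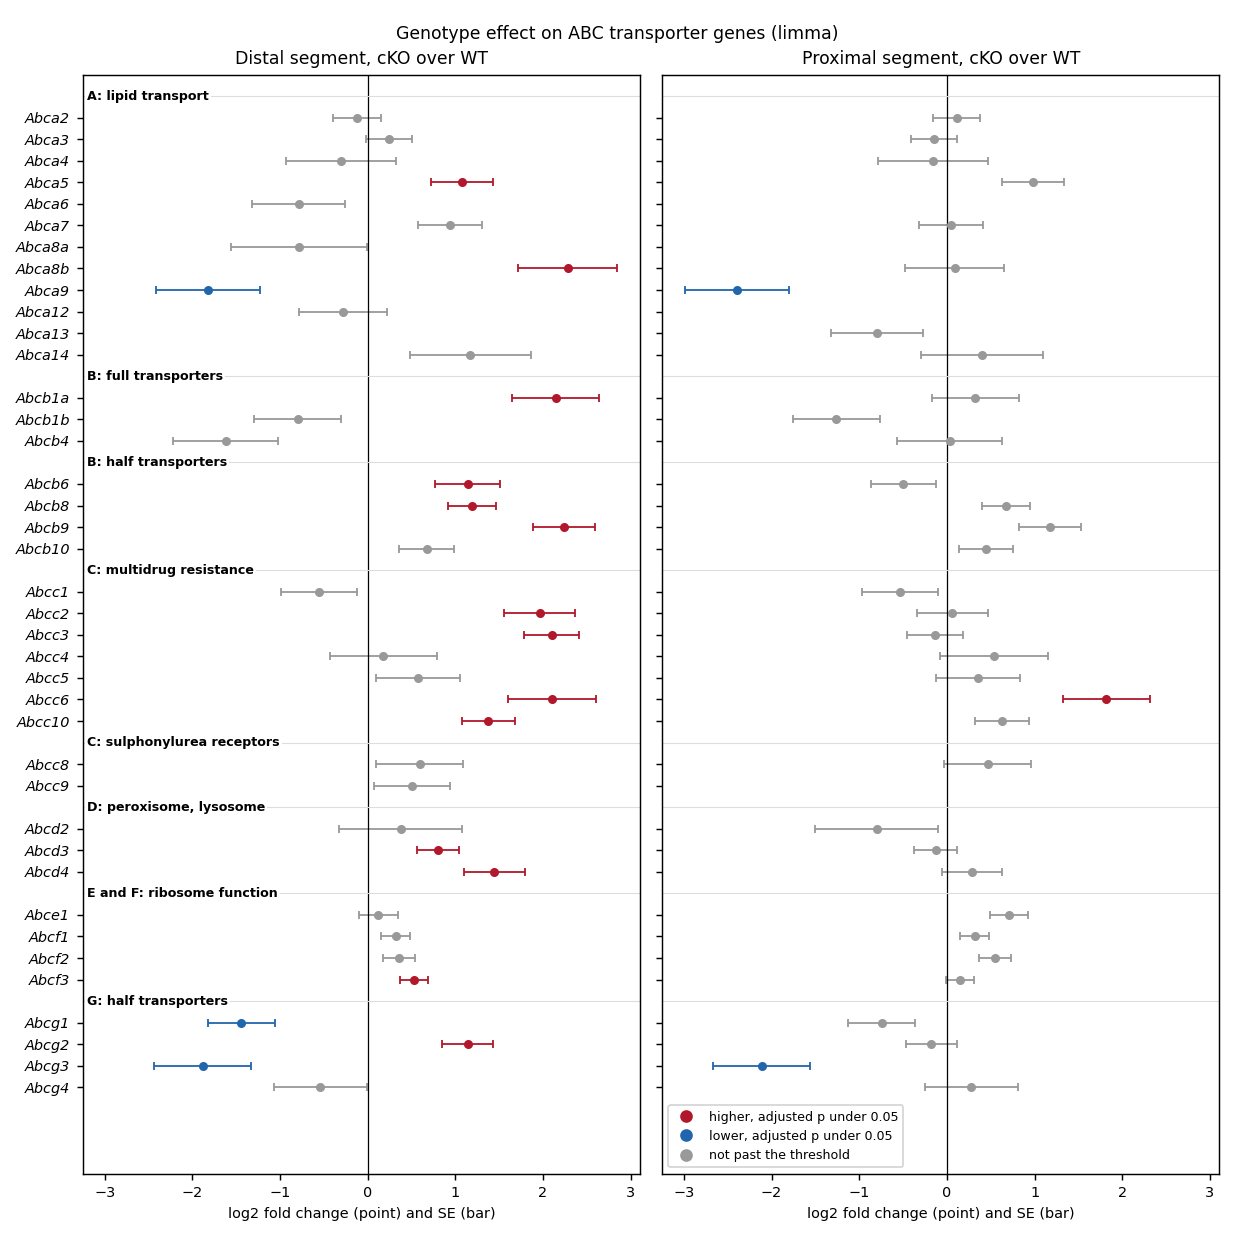
Log2 fold changes of cKO over WT with their standard errors for the members, by subfamily and role, in the distal segment (left) and the proximal segment (right). Red marks members higher and blue members lower past the threshold, and gray the rest. Pairs of groups with hardly any reads are not drawn.

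Among the brush border drug pumps, Abcb1a and Abcg2 were higher in cKO than in WT distal intestine. Abcb1a, at mm10 chr5:8660077-8748575, encodes a P-glycoprotein, and had 24967, 15816 and 26623 scaled counts in cKO distal libraries, against 2152, 4214 and 13451 in WT distal libraries. All cKO distal libraries lay above all WT distal libraries, with WT distal 3 the nearest (log2 fold change 2.14, SE 0.50, adjusted p = 0.00674). In proximal libraries Abcb1a had 10067, 8886 and 12468 in cKO, against 10646, 5683 and 9406 in WT, which overlapped, and the log2 fold change of 0.32 did not pass (adjusted p = 0.728). The difference of the 2 genotype effects, 1.82, did not pass either (adjusted p = 0.271), but did so without WT distal 3 (2.54, adjusted p = 0.0248). Without WT distal 3 Abcb1a also passed as lower in WT distal than in WT proximal libraries (log2 fold change -1.46, adjusted p = 0.00941).

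Abcg2, at mm10 chr6:58584523-58695676, is the breast cancer resistance protein and exports drugs and urate. It had 4755, 5028 and 2876 scaled counts in cKO distal libraries, against 1788, 1628 and 2202 in WT distal libraries, with no overlap. Its proximal values were 1620, 1884 and 1655 in cKO, against 3294, 1497 and 1478 in WT, so the cKO distal libraries were high against the cKO proximal group as well as against WT distal. Abcg2 was higher in cKO than in WT in the distal segment (log2 fold change 1.14, SE 0.29, adjusted p = 0.011), and higher in distal than in proximal cKO intestine (log2 fold change 1.25, SE 0.29, adjusted p = 0.0126). The first call was lost with single libraries left out, at an adjusted p of 0.0527 when leaving out WT distal 2 and 0.0528 when leaving out cKO distal 1, and the segment call at 0.0584 when leaving out cKO distal 2 and 0.0543 when leaving out cKO proximal 1.

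The genes next to Abcb1a on chromosome 5 had lower levels, at 5.4 ± 2.05 scaled counts per kilobase for Abcb1b and 0.369 ± 0.297 for Abcb4 in cKO distal libraries (mean ± SD, n = 3). Abcb1b, the other mouse P-glycoprotein gene, had 37.1, 30.7 and 61.7 scaled counts in cKO distal, against 102, 110 and 33.7 in WT distal libraries, and 14.1, 15.9 and 22.4 in cKO proximal, against 71.6, 44.9 and 23.6 in WT proximal libraries. Its log2 fold changes of -0.80 in distal and -1.26 in proximal intestine did not pass. Without WT distal 3, Abcb1b passed as lower in cKO distal intestine (log2 fold change -1.34, adjusted p = 0.0445). By DESeq2 on the recovered reads it passed as lower in cKO proximal intestine (-1.555, adjusted p = 0.0442). With the library number as a block, it passed as higher in distal than in proximal cKO intestine (log2 fold change 1.22, adjusted p = 0.0203). The phosphatidylcholine floppase gene Abcb4 averaged 3.46 ± 2.79 in cKO distal and 11.5 ± 4.81 in WT distal libraries (SD, n = 3), and 3.44 in cKO proximal and 2.88 in WT proximal libraries. Its distal genotype effect of -1.62, from 7 reads in cKO and 28 in WT, did not pass (adjusted p = 0.0625). Abcb4 passed as lower there without cKO distal 3 (-2.09, adjusted p = 0.0247), without WT distal 3 (-1.965, adjusted p = 0.0371) and with a pseudocount of 4 (-1.07, adjusted p = 0.044). Transcripts of Abcb1a and Abcb1b were 87.7% identical over 4000 aligned bases, and those of Abcb1a and Abcb4 80.1% over 3120, so reads could be shared between them. Abcb1a also overlaps an antisense gene over 10.1% of its exon bases, and whether reads were counted by strand is not given in the sources used here.

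Of the 7 multidrug resistance proteins of subfamily C, Abcc2, Abcc3, Abcc6 and Abcc10 were higher in cKO than in WT distal intestine and none was lower. Of all genes 13.3% were higher and 11.7% lower in that comparison. Abcc2, at mm10 chr19:43782192-43840740, exports glucuronide and glutathione conjugates to the lumen. It had 8916, 6943 and 12054 scaled counts in cKO distal libraries, against 1430, 2162 and 4097 in WT distal libraries. In the proximal segment the values were 11238, 15030 and 16273 in cKO, against 24783, 9091 and 10776 in WT. The WT distal libraries were the lowest group and overlapped no other, so Abcc2 was higher in cKO than in WT distal intestine (log2 fold change 1.96, SE 0.41, adjusted p = 0.00342) and lower in distal than in proximal WT intestine (log2 fold change -2.53, SE 0.41, adjusted p = 0.000594). Distal and proximal cKO libraries overlapped, at a log2 fold change of -0.63 (adjusted p = 0.383).

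Abcc3, at mm10 chr11:94343295-94392997, exports conjugates and bile acids across the basolateral membrane. It had 5624, 2414 and 3877 scaled counts in cKO distal libraries, against 765, 712 and 1228 in WT distal libraries. Proximal values were 2835, 3455 and 3325 in cKO, against 5388, 2860 and 2804 in WT, so that the WT distal libraries again stood below the other 3 groups without overlap. Abcc3 was higher in cKO distal than in WT distal intestine (log2 fold change 2.10, SE 0.32, adjusted p = 0.000374), and within WT it was lower in distal than in proximal intestine (log2 fold change -2.0, SE 0.32, adjusted p = 0.000524). In the proximal segment the genotype effect was -0.14 with overlapping libraries (adjusted p = 0.825). The difference of the genotype effects was 2.23 (SE 0.45, adjusted p = 0.0432), and Abcc3 was the member in which that test passed in the fit of all libraries. Without 1 library the adjusted p of that difference was 0.0673 when leaving out WT distal 1, 0.137 when leaving out WT distal 2, 0.0914 when leaving out WT proximal 1, 0.0714 when leaving out WT proximal 2, 0.104 when leaving out cKO distal 1, 0.0552 when leaving out cKO distal 3, 0.117 when leaving out cKO proximal 1, 0.0708 when leaving out cKO proximal 2 and 0.0838 when leaving out cKO proximal 3, and 0.249 without both cKO libraries numbered 1. The distal genotype call and the WT segment call of Abcc3 passed under all 16 alternatives.

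Abcc6, at mm10 chr7:45967555-46030302, is the gene whose loss causes pseudoxanthoma elasticum in humans, and was higher in cKO in both segments. It had 753, 404 and 312 scaled counts in cKO distal libraries, against 77.9, 55.5 and 269 in WT distal libraries. The proximal libraries had 587, 579.5 and 649.6 in cKO, against 250.5, 95.4 and 207 in WT, with no overlap of genotypes in either segment. Both effects passed, in distal (log2 fold change 2.10, SE 0.50, adjusted p = 0.00764) and in proximal intestine (log2 fold change 1.82, SE 0.50, adjusted p = 0.0397). The proximal call was lost at an adjusted p of 0.162 when leaving out WT proximal 2, 0.0718 when leaving out WT proximal 3, 0.0903 when leaving out cKO proximal 1, 0.104 when leaving out cKO proximal 2 and 0.104 when leaving out cKO proximal 3, and with TMM scaling (0.0511). Abcc10, at mm10 chr17:46303221-46328352, exports lipophilic drugs and had 1049, 550.1 and 868 scaled counts in cKO distal, against 249.6, 223 and 510.2 in WT distal libraries (log2 fold change 1.38, SE 0.30, adjusted p = 0.0049). In proximal libraries it had 603, 751 and 650.5 in cKO, against 559, 359 and 397 in WT, which did not overlap but did not pass (adjusted p = 0.214).

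The remaining subfamily C members did not pass between genotypes. Abcc1, the broad glutathione conjugate exporter, averaged 139 ± 64.7 scaled counts in cKO distal and 207 ± 92.7 in WT distal libraries (SD, n = 3). Abcc4, an exporter of cyclic nucleotides, ranged over 77.3, 42.3 and 328 in cKO distal libraries, against 82.8, 94.5 and 94.9 in WT distal libraries, with cKO distal 3 far above the rest. Abcc5, also a cyclic nucleotide exporter, had 208, 180 and 864 in cKO distal, against 257, 187 and 203 in WT distal libraries, with the same library high. With the library number as a block, Abcc1 (log2 fold change 0.66, adjusted p = 0.0481) and Abcc4 (1.24, adjusted p = 0.00653) passed as higher, and Abcc5 (-0.77, adjusted p = 0.0403) as lower, in distal than in proximal WT intestine. The sulphonylurea receptor genes Abcc8 and Abcc9, regulatory subunits of potassium channels, averaged 28.7 and 5.2 in cKO distal, against 22 and 3.29 in WT distal libraries.

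**Figure D3:**
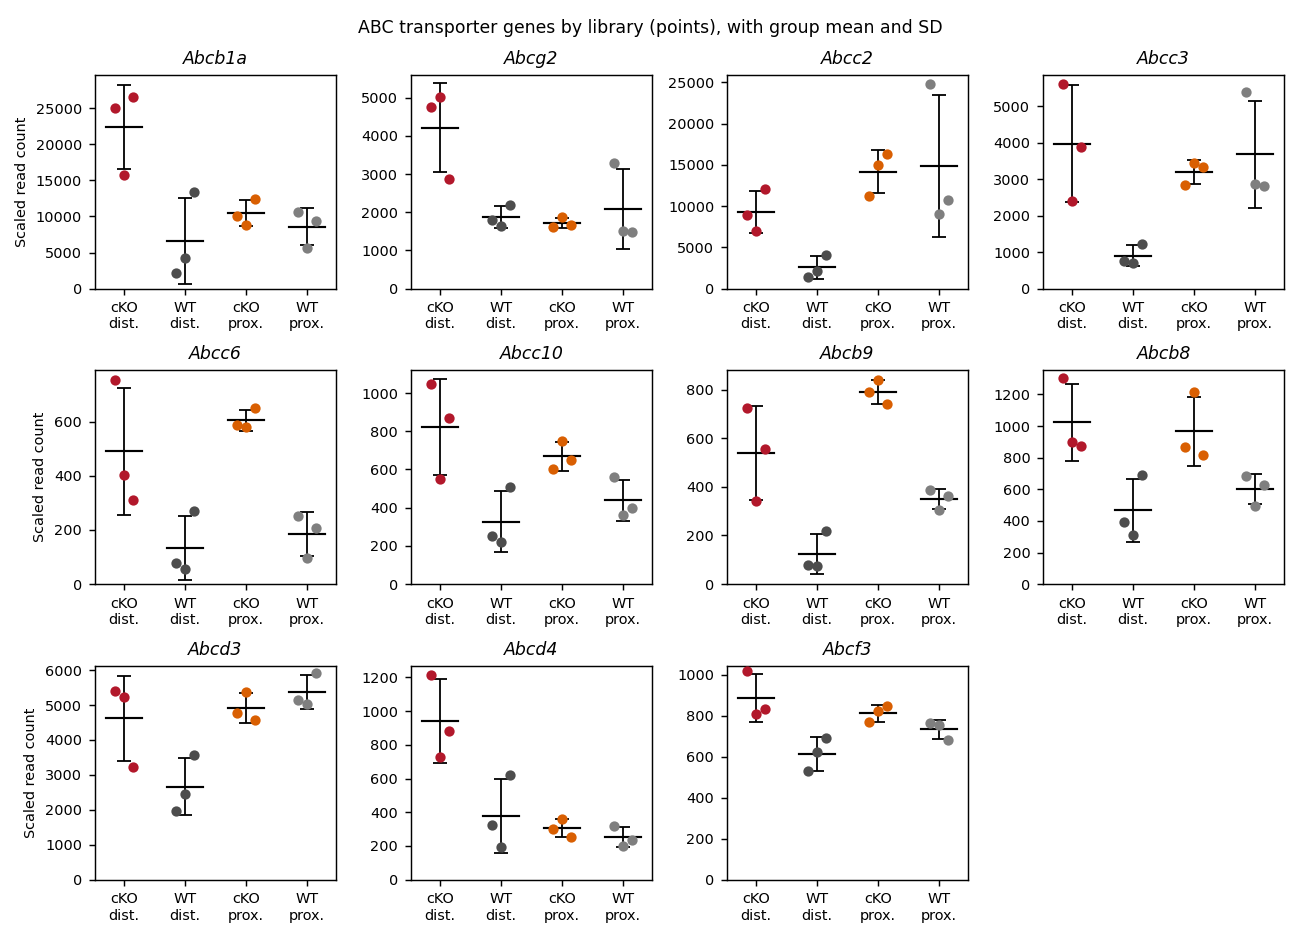
Scaled read counts of 11 members in every library (points), with the group mean (line) and SD (bar), for cKO distal, WT distal, cKO proximal and WT proximal intestine from left to right. The 11 genes were picked after their values were seen. For Abcb9, Abcc2 and Abcc3 all WT distal libraries lie below every other library. Abcb1a, Abcb8, Abcc3, Abcc10, Abcd4, Abcf3 and Abcg2 have their highest mean in cKO distal libraries.

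Among the subfamily B transporters of mitochondria and lysosomes, Abcb6, Abcb8 and Abcb9 were higher in cKO distal intestine. Abcb9, at mm10 chr5:124061530-124095798, moves peptides into lysosomes. It had 726, 340.2 and 554 scaled counts in cKO distal libraries, against 80.4, 73.0 and 218 in WT distal libraries. The proximal values were 789, 840.2 and 742 in cKO, against 386, 305 and 362 in WT. The genotypes did not overlap in either segment, and all WT distal libraries lay below every other library. Abcb9 was higher in cKO distal than in WT distal intestine (log2 fold change 2.23, SE 0.35, adjusted p = 0.000513), a call that held under all 16 alternatives. It was lower in distal than in proximal WT intestine (log2 fold change -1.68, SE 0.35, adjusted p = 0.00377), while the proximal genotype effect of 1.17 missed the threshold (adjusted p = 0.0555).

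Abcb8, at mm10 chr5:24393663-24410054, sits in the mitochondrial inner membrane and takes part in iron export. It had 1302, 897 and 871 scaled counts in cKO distal, against 393, 313 and 693 in WT distal libraries (log2 fold change 1.19, SE 0.27, adjusted p = 0.0061). Proximal libraries had 868, 1216 and 816 in cKO, against 683, 496 and 629 in WT, separate but not past the threshold (adjusted p = 0.142). Abcb6, at mm10 chr1:75171717-75180392, a porphyrin transporter, had 978, 459 and 632 in cKO distal, against 235, 202 and 552 in WT distal libraries, where WT distal 3 lay above cKO distal 2. Its proximal values were 278, 424 and 256 in cKO, against 612, 370.4 and 374 in WT. The distal call of Abcb6 (log2 fold change 1.14, SE 0.37, adjusted p = 0.0361) was lost at an adjusted p of 0.132 when leaving out WT distal 1, 0.158 when leaving out WT distal 2, 0.17 when leaving out cKO distal 1 and 0.0582 when leaving out cKO distal 3. Abcb6 is uncertain on a further ground, since 55.2% of its exon bases lie in another gene on the same strand.

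The mitochondrial Abcb10 averaged 752 ± 283 in cKO distal and 453 ± 111 in WT distal libraries (SD, n = 3), and passed in none of the 5 comparisons. Without cKO distal 3 it passed as higher in cKO distal intestine (log2 fold change 1.03, adjusted p = 0.0175). An antisense gene overlaps 10.3% of the exon bases of Abcb10.

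In subfamily D, whose members act as dimers in organelles, Abcd3 and Abcd4 were higher in cKO distal intestine. Abcd3, at mm10 chr3:121758774-121815302, imports long branched acids and bile acid precursors into peroxisomes. It had 5411, 5223 and 3220 scaled counts in cKO distal, against 1971, 2445 and 3555 in WT distal libraries, with cKO distal 3 below WT distal 3. Proximal values were 4776, 5384 and 4566 in cKO, against 5146, 5041 and 5924 in WT. The distal genotype call (log2 fold change 0.80, SE 0.24, adjusted p = 0.0261) was lost at an adjusted p of 0.112 when leaving out WT distal 1, 0.0859 when leaving out WT distal 2, 0.112 when leaving out cKO distal 1 and 0.0951 when leaving out cKO distal 2. The fall in distal against proximal WT intestine (log2 fold change -1.05, SE 0.24, adjusted p = 0.00631) passed under all 16 alternatives. Abcd2, a peroxisomal member, averaged 26.0 ± 13.6 in cKO distal and 27.1 ± 24.2 in WT distal libraries (SD, n = 3).

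Abcd4, at mm10 chr12:84601464-84617413, takes part in the release of cobalamin (vitamin B12) from lysosomes. It had 1217, 730.2 and 879 scaled counts in cKO distal, against 324, 191 and 619.8 in WT distal libraries (log2 fold change 1.45, SE 0.34, adjusted p = 0.00761). Its proximal values were low in both genotypes, 303, 361 and 252 in cKO, against 318, 199.8 and 238 in WT. The cKO distal libraries stood above every other library, and Abcd4 was higher in distal than in proximal cKO intestine (log2 fold change 1.61, SE 0.34, adjusted p = 0.00778). The same contrast in WT was 0.45 (adjusted p = 0.386), and the difference between them, 1.16, did not pass (adjusted p = 0.317).

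Of the 4 soluble members, 1 passed between genotypes, as higher in cKO distal intestine, where 13.3% of all genes were higher. Abcf3, at mm10 chr16:20548577-20561379, a protein of translation control, had 1020, 809 and 832 scaled counts in cKO distal, against 528, 625 and 694 in WT distal libraries, and 768, 822 and 849 in cKO proximal, against 764, 756 and 679 in WT proximal libraries. Its distal genotype effect was small (log2 fold change 0.53, SE 0.16, adjusted p = 0.0236) and was lost at an adjusted p of 0.0787 when leaving out WT distal 1, 0.0556 when leaving out WT distal 2 and 0.112 when leaving out cKO distal 1. Abce1, at mm10 chr8:79683462-79711740, which splits ribosomes for recycling, had 591, 694 and 869 in cKO distal, against 556, 815 and 615 in WT distal libraries, which overlapped. In proximal libraries it had 645, 680.2 and 686 in cKO, against 292, 504 and 469 in WT, so that WT proximal libraries were the lowest. It was higher in distal than in proximal WT intestine (log2 fold change 0.67, SE 0.22, adjusted p = 0.0413), a call lost at an adjusted p of 0.171 when leaving out WT distal 2, 0.0574 when leaving out WT distal 3 and 0.18 when leaving out WT proximal 1. Abcf1, a factor of translation initiation, and Abcf2 had distal genotype effects of 0.32 and 0.35 on the log2 scale. Neither passed in any comparison in the fit of all libraries. By DESeq2 on the recovered reads Abcf1 passed as lower in distal than in proximal WT intestine (log2 fold change -0.33, adjusted p = 0.0457).

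Subfamily A, whose members move lipids, had 2 higher and 1 lower member of 12 in cKO distal intestine. Of all genes 13.3% were higher and 11.7% lower there, so these counts lay near those shares. Abca8b, at mm10 chr11:109932190-109995845, a relative of human ABCA8, had 173, 97.9 and 156 scaled counts in cKO distal, against 18.3, 17.5 and 65.4 in WT distal libraries. Its proximal libraries held few reads, with scaled counts of 2.02, 4.24 and 9.32 in cKO, against 3.16, 6.74 and 3.22 in WT. Genotypes did not overlap in the distal segment (log2 fold change 2.28, SE 0.56, adjusted p = 0.00964), although the adjusted p was 0.0526 when leaving out WT distal 2. Distal libraries lay far above proximal ones in cKO (log2 fold change 4.67, SE 0.56, adjusted p = 9.19e-05), and likewise in the WT libraries (log2 fold change 2.48, SE 0.56, adjusted p = 0.00603), and the difference of these effects, 2.19, did not pass (adjusted p = 0.234). The transcripts of Abca8b and its neighbour Abca8a were 80% identical over 2880 aligned bases.

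Abca12, known for lipid secretion in skin, was a distal gene in both genotypes. It had 29, 31 and 10 reads in cKO distal libraries, against 14, 16 and 53 in WT distal libraries. WT proximal libraries had 0 reads of Abca12, so it was at least 9.17-fold higher in WT distal than in WT proximal intestine, against a floor of 3 reads per library. In cKO, 70 reads in distal against 1 in proximal libraries gave a ratio of 68.1, with an exact 95% interval of 11.8 to 2729 that covers counting error only. Abca2, at mm10 chr2:25428703-25448540, a lipid transporter of endosomes and lysosomes, went the other way. It had 226, 202 and 239 scaled counts in cKO distal, against 634, 702 and 459 in cKO proximal libraries (log2 fold change -1.41, SE 0.27, adjusted p = 0.00391). In WT it had 203, 324 and 212 in distal, against 857, 441 and 429.9 in proximal libraries (log2 fold change -1.18, SE 0.27, adjusted p = 0.00656). Distal and proximal libraries overlapped in neither genotype, while cKO and WT overlapped in both segments.

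Abca9, in the same chromosome 11 cluster as Abca8b, was lower in cKO in both segments. It had 8.48, 9.96 and 30.8 scaled counts in cKO distal, against 70.6, 70.9 and 27.4 in WT distal libraries, with WT distal 3 below cKO distal 3. Proximal libraries had 30.3, 7.42 and 7.46 in cKO, against 62.1, 57.2 and 87.0 in WT, with no overlap. The proximal call (log2 fold change -2.39, SE 0.59, adjusted p = 0.0257) was lost at an adjusted p of 0.0642 when leaving out WT proximal 2, 0.085 when leaving out WT proximal 3, 0.104 when leaving out cKO proximal 2 and 0.093 when leaving out cKO proximal 3. The distal call (log2 fold change -1.82, SE 0.59, adjusted p = 0.0363) was lost at 0.126 when leaving out WT distal 1, 0.13 when leaving out WT distal 2, 0.149 when leaving out cKO distal 1 and 0.114 when leaving out cKO distal 2. Abca5, of the same cluster, had 68.9, 68.9 and 91.4 in cKO distal, against 30.4, 39.0 and 36.9 in WT distal libraries (log2 fold change 1.08, SE 0.35, adjusted p = 0.0382), and this call was lost at an adjusted p of 0.11 when leaving out WT distal 1, 0.0725 when leaving out WT distal 2, 0.056 when leaving out WT distal 3, 0.0819 when leaving out cKO distal 1, 0.0682 when leaving out cKO distal 2 and 0.0963 when leaving out cKO distal 3. Leaving out any single library of the distal comparison thus ended the Abca5 call.

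The other subfamily A members passed in none of the 5 comparisons. Abca7, a phospholipid transporter, had 3086, 1209 and 2078 scaled counts in cKO distal, against 752, 767 and 1919 in WT distal libraries, at a log2 fold change of 0.94 (adjusted p = 0.0782). Without cKO distal 2 it passed at an adjusted p of 0.0265, and without WT distal 3 at 0.00531. With the library number as a block, Abca7 passed as higher in distal than in proximal cKO intestine (log2 fold change 0.97, adjusted p = 0.0493), and Abca13 as lower in distal than in proximal WT intestine (-1.42, adjusted p = 0.0478). That Abca13 fold rests on 3 reads in WT distal and 17 in WT proximal libraries. Abca3, the surfactant lipid transporter of lung, averaged 921 ± 207 in cKO distal and 775 ± 149 in WT distal libraries (SD, n = 3). Abca4, Abca6, Abca8a and Abca13 averaged under 10 scaled counts in each of those groups, and Abca14 had 27.6 ± 13.3 in cKO distal and 14.6 ± 14.7 in WT distal libraries. Without WT distal 3, Abca14 passed as higher in cKO distal intestine (log2 fold change 1.90, adjusted p = 0.0428). In that setting Abca6 passed as higher in distal than in proximal WT intestine (1.69, adjusted p = 0.0417). With all libraries, Abca6 had 11 reads in WT distal and 1 in WT proximal libraries.

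In subfamily G, Abcg1 and Abcg3 were lower in cKO distal intestine, as was Abca9 above. Abcg1, at mm10 chr17:31057675-31117988, exports cholesterol, above all from macrophages. It had 82.6, 51.4 and 133 scaled counts in cKO distal, against 181, 268 and 238 in WT distal libraries, without overlap (log2 fold change -1.44, SE 0.38, adjusted p = 0.014). Proximal values were 106, 46.6 and 105 in cKO, against 98.9, 146 and 172 in WT, which overlapped. The distal call was lost at an adjusted p of 0.0613 when leaving out WT distal 2 and 0.064 when leaving out cKO distal 2, and Abcg1 was higher in distal than in proximal WT intestine with the library number as a block (log2 fold change 0.74, adjusted p = 0.0307). Abcg3, at mm10 chr5:104935057-104982718, a rodent gene, had 15.9, 19.9 and 77.6 in cKO distal, against 70.6, 153 and 124 in WT distal libraries, with cKO distal 3 above WT distal 1. In proximal libraries it had 73.7, 26.5 and 40.1 in cKO, against 115, 250.3 and 233 in WT, without overlap. Both calls of Abcg3, in distal (log2 fold change -1.88, SE 0.55, adjusted p = 0.0233) and in proximal intestine (log2 fold change -2.11, SE 0.55, adjusted p = 0.0332), ended with single libraries left out, the distal one at 0.0965 when leaving out WT distal 2, 0.116 when leaving out cKO distal 1 and 0.0867 when leaving out cKO distal 2, and the proximal one at 0.119 when leaving out WT proximal 2, 0.1 when leaving out WT proximal 3, 0.132 when leaving out cKO proximal 2 and 0.0895 when leaving out cKO proximal 3. Abcg4 averaged under 10 scaled counts in each group.

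Some markers of other cell types were lower in cKO beside these 3 members. Of all genes, 11.7% were lower in cKO in the distal and 4.05% in the proximal segment. Summed over the 8 B and plasma cell markers, levels were 344 to 922 in cKO distal, against 13814 to 32438 in WT distal libraries, and 8 of 8 markers were lower in cKO there. In proximal libraries the sums were 652 to 1008 in cKO, against 1940 to 6262 in WT, with 5 of 8 lower. The 8 macrophage and dendritic cell markers summed to 3896 to 6040 in cKO distal, against 6364 to 24440 in WT distal libraries (4 lower), and to 3280 to 4554 in cKO proximal, against 11655 to 18479 in WT proximal libraries (5 lower). No marker of these 2 lists was at 0 in any library. The 8 markers of cycling crypt cells summed to 1885 to 3397 in cKO distal, against 5073 to 6214 in WT distal libraries, with 6 lower, and to 2089 to 2440 in cKO proximal, against 2092 to 3334 in WT proximal libraries, with 1 lower. The crypt marker Ascl2 was at 0 reads in 2 libraries. The 7 fibroblast and telocyte markers measured summed to 5044, 5323 and 5440 in cKO distal, against 23763, 15853 and 2038 in WT distal libraries, so that WT distal 3 was low in this sum, as it was in Abca9 among the WT distal libraries. Their proximal sums were 2816, 1956 and 3312 in cKO, against 19770, 9162 and 2954 in WT. Of these 7 markers 0 passed in the distal segment by limma, with 1 at an unadjusted p under 0.05, and 1 was lower in the proximal segment, at median log2 fold changes of -0.99 and -1.74. Other lists held lower markers as well. In cKO distal intestine 2 of 8 T cell, 1 of 5 tuft and 1 of 6 Paneth markers were lower and 0 higher. In cKO proximal intestine these counts were 1, 1 and 1 lower and 0 higher. Enteroendocrine markers had 2 lower and 1 higher of 7 in distal, and 3 lower and 0 higher in proximal intestine. Endothelial markers had 1 lower and 1 higher of 7 in distal, and 2 lower and 1 higher in proximal intestine. The part of any of these lists in the values of Abcg1, Abcg3 and Abca9 was not tested. In bulk tissue, fewer cells of a type and less RNA per cell cannot be told apart.

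Summed enterocyte markers were higher in cKO distal than in WT distal libraries on average, beside the higher members, and so were summed goblet markers. The 12 enterocyte markers summed to 545345 to 906427 in cKO distal, against 234136 to 545834 in WT distal libraries. Of these 12, 4 were higher in cKO there and 0 lower, with a median log2 fold change of 1.34, where 13.3% of all genes were higher. The other 8 did not pass, among them the alkaline phosphatase gene Alpi at -0.05. The proximal sums were 680166 to 812559 in cKO, against 464551 to 702781 in WT, with 0 of 12 past the threshold. No enterocyte marker was at 0 in any library. The 6 goblet markers summed to 115117 to 222707 in cKO distal, against 66390 to 190489 in WT distal libraries, which overlapped. Of these 6, 2 were higher and 0 lower in cKO distal intestine (median 0.94), and 1 was higher and 0 lower in the proximal segment. All ABC members together took 0.452 ± 0.0906% of reads outside mitochondrial genes in cKO distal and 0.24 ± 0.0668% in WT distal libraries (SD, n = 3). In proximal libraries the share was 0.349 ± 0.0333% in cKO and 0.363 ± 0.0837% in WT. The part of the enterocyte and goblet markers in these values was not tested.

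**Figure D4:**
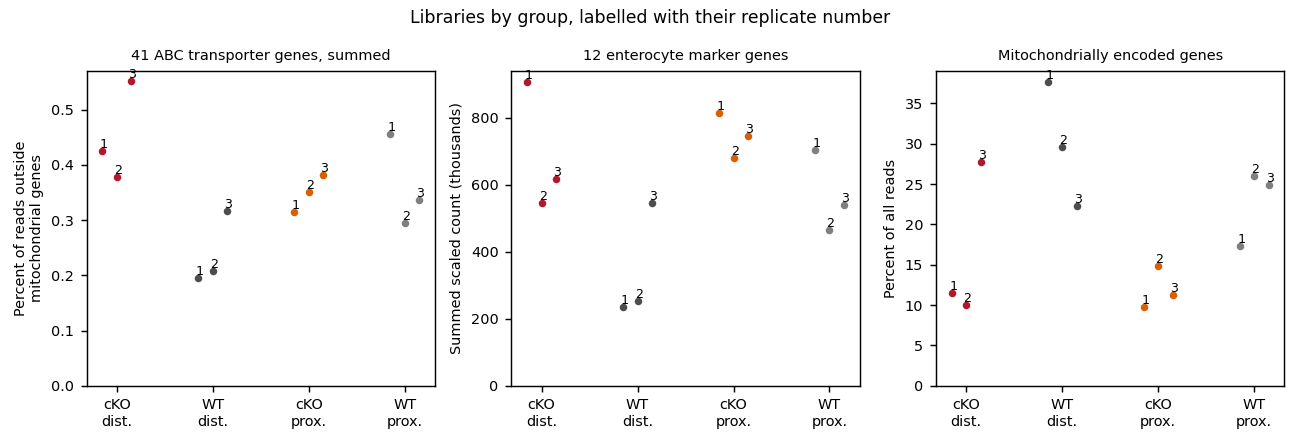
Share of reads of the 41 members (left), summed enterocyte markers (middle) and share of mitochondrial reads (right) in each library, with its replicate number, for cKO distal, WT distal, cKO proximal and WT proximal intestine. WT distal 1 and 2 are lowest in the left and middle panels, and WT distal 3 lies nearer to the other groups.

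**Figure D5:**
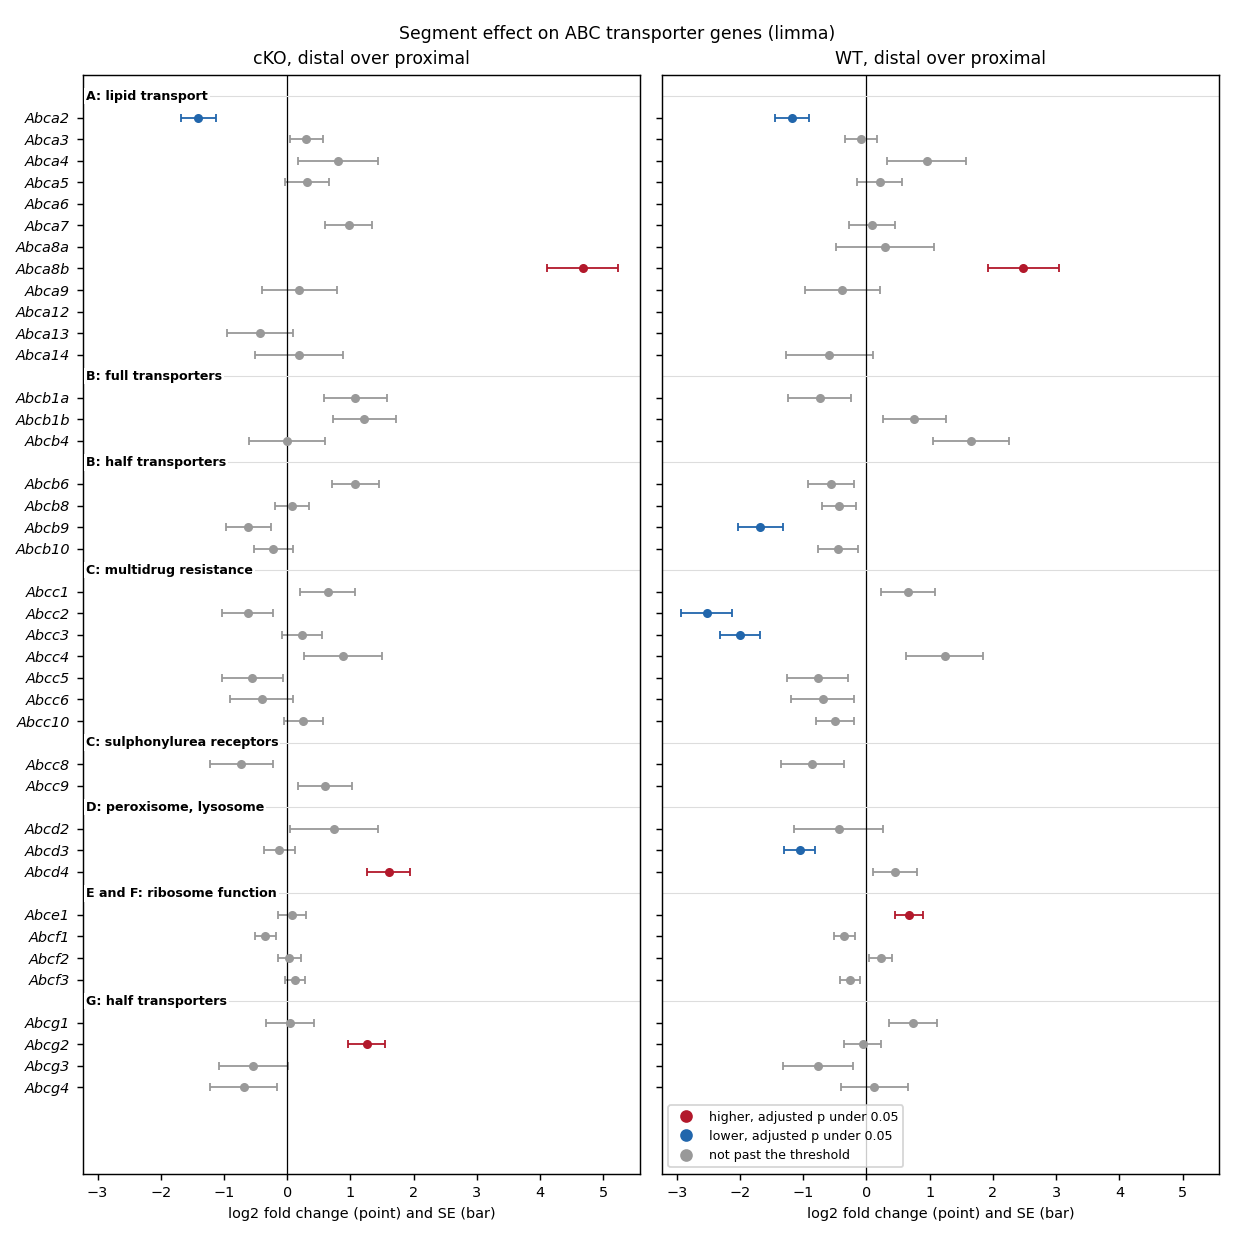
Log2 fold changes of distal over proximal intestine with their standard errors for the members, by subfamily and role, in cKO (left) and WT (right). Abca2 is lower and Abca8b higher in both genotypes, while Abcb9, Abcc2, Abcc3 and Abcd3 are lower past the threshold in WT. Pairs of groups with hardly any reads are not drawn: Abca6 and Abca12 in both genotypes, Abca8a in cKO, and Abca13 and Abcc9 in WT.

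The segment comparison in WT thus held Abcb9, Abcc2, Abcc3 and Abcd3 as lower members that did not pass in cKO. For Abcc3 the difference between the genotypes passed, and for the others named it did not, in the fit of all libraries, at 1.90 for Abcc2 (adjusted p = 0.147), 1.06 for Abcb9 (0.384) and 0.93 for Abcd3 (0.239). The difference passed without WT distal 3 for Abcc2 (2.31, adjusted p = 0.0451) and Abcb9 (1.56, adjusted p = 0.0465), as it did for Abcb6 (2.08, adjusted p = 0.0356). By DESeq2 on the recovered reads it passed for Abcc2 (1.97, adjusted p = 0.0226), Abcd3 (0.94, adjusted p = 0.0487) and Abcg2 (1.43, adjusted p = 0.024). Without WT distal 3 the WT segment count was 16 of 41 in place of 10, while 3924 of all genes were called in place of 4137. Libraries of 1 number were taken to pair the segments from their correlations, as the labels give no pairing. With the number as a block the count was 15 in WT and 7 in cKO, with all 10 and all 5 main calls among them. The block called 4935 of all genes in WT and 2601 in cKO, in place of 4137 and 1806. In that fit the difference of genotype effects passed for 1 member, Abcc3, and for 460 of all genes in place of 99.

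RefSeq promoter sequences (build GRCm38.p6, that of mm10) were matched for 29 of 41 members. Shown, from 5′ to 3′ on the strand of the gene, are the 250 bases before the start of Abcb9, Abcc2 and Abca8b, which passed both between genotypes in distal intestine and between segments of WT and have 1 start in the table. The starts are those of RefSeq. For Abcc2 the RefSeq start, 43782308, lies inside the gene as GENCODE gives it, which begins at 43782192, so that 116 of the 250 bases and the element marked in them lie within the GENCODE gene. For the other 2 genes the starts are the same in both. Capitals mark matches to the 7 motifs searched on both strands, of which these sequences hold the GC box GGGCGG (or its reverse complement) and the antioxidant response element TGACNNNGC.
Abcb9 (chr5:124095799-124096048, minus strand): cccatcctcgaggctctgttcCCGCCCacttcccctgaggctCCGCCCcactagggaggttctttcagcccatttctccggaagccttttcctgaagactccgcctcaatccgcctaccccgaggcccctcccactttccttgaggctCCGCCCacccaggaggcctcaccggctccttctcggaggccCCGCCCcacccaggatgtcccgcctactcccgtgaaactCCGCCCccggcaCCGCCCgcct
Abcc2 (chr19:43782058-43782307, plus strand): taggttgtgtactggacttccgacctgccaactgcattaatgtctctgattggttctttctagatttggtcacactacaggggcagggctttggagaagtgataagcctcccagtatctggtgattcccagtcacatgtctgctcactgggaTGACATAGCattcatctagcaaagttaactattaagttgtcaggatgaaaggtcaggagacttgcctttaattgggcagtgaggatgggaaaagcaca
Abca8b (chr11:109995846-109996095, minus strand): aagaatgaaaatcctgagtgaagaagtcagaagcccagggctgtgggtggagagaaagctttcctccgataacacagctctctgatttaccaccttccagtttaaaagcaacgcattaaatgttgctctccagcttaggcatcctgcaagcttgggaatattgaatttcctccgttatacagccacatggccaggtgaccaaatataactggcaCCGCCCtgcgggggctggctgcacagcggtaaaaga
Abcb9 held 6 GC boxes, Abca8b 1, and Abcc2 1 antioxidant response element. Over all matched members, the GC box was found in at least 1 promoter of 16 of 29 genes, where 35.4% of 27025 mouse genes hold it, and the antioxidant response element in 3 (Abcc2, Abcc4 and Abcc10), where 11.5% do. The BMP SMAD motif GGCGCC was found in 4 (Abca2, Abcc4, Abcf1 and Abcg2), where 10.85% of genes hold it. The TATA box TATAAA was in 2 (14.3% of genes), the CDX motif TTTATTG in 1 (4.89%), and the HNF4 motif CAAAGTCCA (0.451%) and the GATA motif AGATAAG (3.17%) in 0. The 35 promoters of the members had a median GC content of 58.8%, against 52.4% over all 32851 promoters. These are matches of letters in a window and mark no site.

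Genes that work beside the transporters were counted in lists. Of all genes, 13.3% were higher and 11.7% lower in cKO distal, and 4.21% higher and 4.05% lower in cKO proximal intestine. These shares stand beside the genotype counts of all lists here and below. In cKO distal against WT distal intestine, 14 of 18 genes of glutathione synthesis and conjugation were higher and 0 lower. Their median log2 fold change was 1.2, and these processes make substrates of the subfamily C pumps. The membrane glutathione transferase gene Mgst1 had 5352 scaled counts on average in cKO and 1384 in WT libraries, at a log2 fold change of 1.94 and an adjusted p = 0.000115, and Gsta1 had 1654 scaled counts on average in cKO and 244 in WT libraries, at a log2 fold change of 2.93 and an adjusted p = 0.000198. Of 20 genes of peroxisomal import and beta-oxidation, 11 were higher and 0 lower (median 0.64), among them the thiolase gene Acaa1b (381 scaled counts on average in cKO and 117 in WT libraries, at a log2 fold change of 1.70 and an adjusted p = 9.23e-05). Of 22 uptake carriers, 9 were higher and 1 lower (median 0.93), with the nucleoside carrier Slc28a1 at 583 scaled counts on average in cKO and 121 in WT libraries, at a log2 fold change of 2.44 and an adjusted p = 0.00104. In the proximal segment these 3 lists had 1, 0 and 2 higher and 1, 0 and 1 lower genes. In distal against proximal WT intestine they had 1, 0 and 1 higher and 15, 16 and 6 lower genes. Of all genes 11.9% were higher and 12.2% lower there, and the WT distal libraries stand in both comparisons. List counts here and below are from the fit of all libraries and were not repeated under the alternatives.

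Genes of mitochondrial iron-sulfur and haem synthesis had 9 higher and 0 lower of 22 in cKO distal intestine (median 0.55), with the haem enzyme gene Cpox at 627 scaled counts on average in cKO and 305 in WT libraries, at a log2 fold change of 1.06 and an adjusted p = 0.00181. In the proximal segment 2 of these 22 were higher, and Cpox had 2387 scaled counts on average in cKO and 967 in WT libraries, at a log2 fold change of 1.31 and an adjusted p = 0.00203. Of 20 genes of peptide loading and MHC class I, 10 were higher and 1 lower in cKO distal intestine (median 0.90), among them the peptidase gene Erap1 (1646 scaled counts on average in cKO and 741 in WT libraries, at a log2 fold change of 1.10 and an adjusted p = 0.00613), and 0 passed in the proximal segment. Of 20 regulators of efflux genes, 5 were higher and 0 lower (median 0.26), led by the xenobiotic receptor gene Nr1i3 (86.5 scaled counts on average in cKO and 20.6 in WT libraries, at a log2 fold change of 2.09 and an adjusted p = 0.00237), and 0 passed in the proximal segment. Of 16 genes of ribosome recycling and rescue, 0 were higher and 1 lower (median 0.12), and 1 was higher in the proximal segment, the stress factor gene Atf4 (2989 scaled counts on average in cKO and 2051 in WT libraries, at a log2 fold change of 0.54 and an adjusted p = 0.0297).

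The 6 ABC genes outside the members, Cftr, Tap1, Tap2, Abca1, Abcg5 and Abcg8, had 5 higher and 0 lower in cKO distal and 2 higher and 0 lower in cKO proximal intestine. The chloride channel gene Cftr had 1785 scaled counts on average in cKO and 508 in WT libraries, at a log2 fold change of 1.81 and an adjusted p = 0.00243 in the distal segment, and 2883 scaled counts on average in cKO and 815 in WT libraries, at a log2 fold change of 1.91 and an adjusted p = 0.0066 in the proximal segment. The cholesterol exporter gene Abca1 had 2906 scaled counts on average in cKO and 999 in WT libraries, at a log2 fold change of 1.52 and an adjusted p = 0.00104 in distal intestine. In distal against proximal intestine 0 of the 6 passed in either genotype by limma, with 1 at an unadjusted p under 0.05 in cKO and 0 in WT.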

How the data were processed

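RNA of 12 libraries in 4 groups was analysed from the table of 17175 genes deposited by the authors. Trizol was used for total RNA and the NuGEN Ovation V2 system for cDNA libraries, per the labels' protocols. The submitters' processing notes name STAR without a version, DESeq2 1.28.1 and mm10. The values deposited by the authors are a signal: all 206100 were whole multiples of a step of their column, within 0.001 steps, so that each equals a read count plus 1 over the library's size factor. The log2 fold change, its standard error, the Wald score and the p-value of 1 contrast that the authors deposited beside them were not used. GENCODE M21 holds 17158 of the gene identifiers and gave positions and exon lengths.

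Log2(value + 1) was tested with limma 3.58.1 under R 4.3.3, using a mean trend in the moderated variances, a mean for each of 4 groups, a single fit of 12 libraries, and Benjamini-Hochberg adjusted p over the 17175 genes. Fold changes are on that scale, which understates low genes. The procedure was tested on simulated data, in which it missed most 2-fold changes. The filter asked for a value of at least 1 in 3 libraries, which a gene with 0 reads also met, so it could take out no gene. Alternatives were TMM factors, other pseudocounts and filters, edgeR 4.0.16, DESeq2 1.42.0 and voom on the recovered reads, left-out libraries, the mitochondrial share as a covariate and a replicate block. Libraries of 1 number correlated in their deviations from group means between segments (0.158 to 0.323), and not between genotypes (-0.148 to 0.0487), so the numbers were taken to pair segments only.

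Members and lists were chosen with earlier results of these data known. Given with every library's value were members past the threshold in a comparison of 2 groups with a mean value of at least 100, or past it in the difference of genotype effects (18, of which 2 are not reported here). Another 4 called members had lower means. Of each list, genes were taken from the 3 with the smallest p per genotype comparison. The motifs and the promoters shown were chosen after values were seen.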

Additional observations from a re-analysis of the deposited data

Results flagged for a closer look

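The genotype effect on the conjugate exporter gene Abcc3 differed between segments by 2.23 on the log2 scale (distal minus proximal, adjusted p = 0.0432 by limma), and it was picked out because the test of that difference passed. Abcc3 was 2.10 higher on the log2 scale in cKO than in WT distal intestine, and -0.14 in the proximal segment. The direction was the same in all 22 alternatives, and 12 of them ended the call.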

How the results depend on the processing

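No call of a member changed sign under any alternative. The proximal genotype count of 3 was 1 with edgeR, 5 with DESeq2, 0 with the mitochondrial share as a covariate, 0 with the replicate block, and 0 to 3 with single libraries left out. Over all genes that comparison called 1418, and 1290, 2322, 292, 612 and 580 to 1360 in those settings. The distal genotype count of 18 was 7 without both cKO libraries numbered 1, 2 with the mitochondrial covariate, and 9 to 21 with single libraries left out, where all genes called were 4297, 2160, 1356 and 2466 to 4954. The replicate block left 15 of those 18 calls, ending those of Abca9, Abcd3 and Abcf3, and the genotypes share only a number. Of all genes, 3146 passed with that block, in place of 4297. The WT segment count of 10 was 8 to 16 with single libraries left out (4137 of all genes, and 2741 to 3924). The cKO segment count of 5 was 9 with DESeq2, 2 without both cKO libraries numbered 1, and 4 to 6 with single libraries left out, where all genes called were 1806, 2785, 862 and 1031 to 1545. The count of 1 for the difference of genotype effects was 4 with DESeq2, and 0 with voom, without both cKO libraries numbered 1 and with the mitochondrial covariate. It was 0 to 5 with single libraries left out. All genes called there were 99, and 595, 20, 2, 98 and 7 to 266 in those settings. The cause of these changes was not tested. Of the main calls, 2 of 18 in the distal genotype comparison, 8 of 10 in the WT segment comparison and 2 of 5 in the cKO segment comparison passed under all 16 alternatives, and 0 of 3 in the proximal genotype comparison. The mean scaled count was under 100 in 16 members, of which 4 were called, and an effect of depth on their calls was not tested.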
